A study of Mus musculus with 5 samples.

Results

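The genes described here encode the receptors by which lens cells hold on to each other and to their capsule, with the catenins that tie cadherins to actin. They are all rows of the count table with a numbered cadherin (Cdh), a protocadherin (Pcdh), an alpha, beta or delta catenin (Ctnna, Ctnnb, Ctnnd), a numbered or V-type integrin alpha chain (Itga), a numbered integrin beta chain (Itgb) or Nrcam. The rule gave 59 of 12370 genes, made up of 30 protocadherins, 12 integrins, 11 cadherins, 5 catenins and Nrcam, and all 59 passed the filter on low counts.

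RNA from lenses of mouse embryos at embryonic day 14 was sequenced in 5 libraries. The 2 N-myc knockout libraries came from embryos whose N-myc alleles were flanked by loxP and which carried Mlr10-Cre (+/-), a transgene that makes Cre recombinase in the lens. The 3 control libraries came from embryos without Cre and with the same flanked N-myc alleles. Control genotypes with and without flanked c-myc are described, and the sources used here do not give which of them each control library had. Each library came from pooled lenses, lysed animal by animal, and the sources do not give the pool size. Every knockout library and no control library carried Cre, so effects of the transgene and of the deletion cannot be told apart.

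The libraries held between 13162384 and 13746416 counts. Values are CPM, counts scaled to a common library total, after TMM scaling, which corrects library totals for composition, and folds are knockout over control from edgeR. Mycn, the deleted gene, had raw counts of 801 and 1141 in the knockout libraries, against 2066, 1955 and 1848 in the controls (log2 fold change -1.11, SE 0.149, edgeR adjusted p = 0.0097, and 0.056 without control replicate 2). Of 12 lens fibre markers 11 were in the table. Their CPM summed to 79269 and 93005 in the knockouts and to between 85330 and 106750 in the controls. Among the 11, 3 (27.3%) were called lower and 0 higher (edgeR adjusted p under 0.05), where 8.51% of all genes were lower and 7.98% higher. Knockout replicate 1 stood apart from the other libraries. On the main axis of variation, with 62.3% of the variance, it lay at 50.3, against 11.87 for knockout replicate 2 and -21.37 to -19.74 for the controls. Markers of periocular mesenchyme summed to 2490 and 751 CPM in knockout replicates 1 and 2, against 594 to 881 in the controls, and muscle markers to 2169 and 86.4 CPM, against 60.6 to 283.

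Classical cadherins bind cadherins of the same kind on the next cell. Their tails hold beta-catenin and p120-catenin (delta-1), and alpha-catenin links that complex to actin. In the lens, E-cadherin marks the epithelium, while N-cadherin is found in epithelium and fibres and persists in the fibres. Integrins are pairs of an alpha and a beta chain that bind laminin, collagen, fibronectin or vitronectin, and they anchor lens cells to the capsule. Protocadherins are cadherin relatives that lack the catenin-binding tail. The gamma cluster makes many of them from neighbouring first exons that are spliced to shared end exons.

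The expression of the adhesion genes was higher in the knockout lenses for a minority of the genes and was not called lower for any. Of 59 genes, 13 rose, 0 fell and 46 did not pass the test (edgeR quasi-likelihood, Benjamini-Hochberg over 12035 genes, threshold 0.05). That is 22.0% of the adhesion genes higher, against 7.98% of all genes tested, while 8.51% of all genes were lower and 16.5% were called in either direction. By family, 4 of 12 integrins, 3 of 11 cadherins, 6 of 30 protocadherins and 0 of 5 catenins rose, and 0 members of any family fell. The members had a median log2 fold change of 0.50, against 0.00 over all genes. The family medians were 0.60 for protocadherins, 0.46 for cadherins, 0.13 for integrins and 0.12 for catenins. Both knockout libraries lay above every control for 30 of the 59 genes, where 25.5% of all genes did so, and below every control for 2, where 27.0% of all genes did so. These totals include 20 gamma-cluster protocadherins, which share exons and are not separate measurements. Of the 39 members outside that cluster, 8 (20.5%) rose and 0 fell, with a median log2 fold change of 0.43. Both knockout libraries lay above every control for 16 of these 39 and below every control for 2. The difference between the families was not tested.

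**Figure D1:**
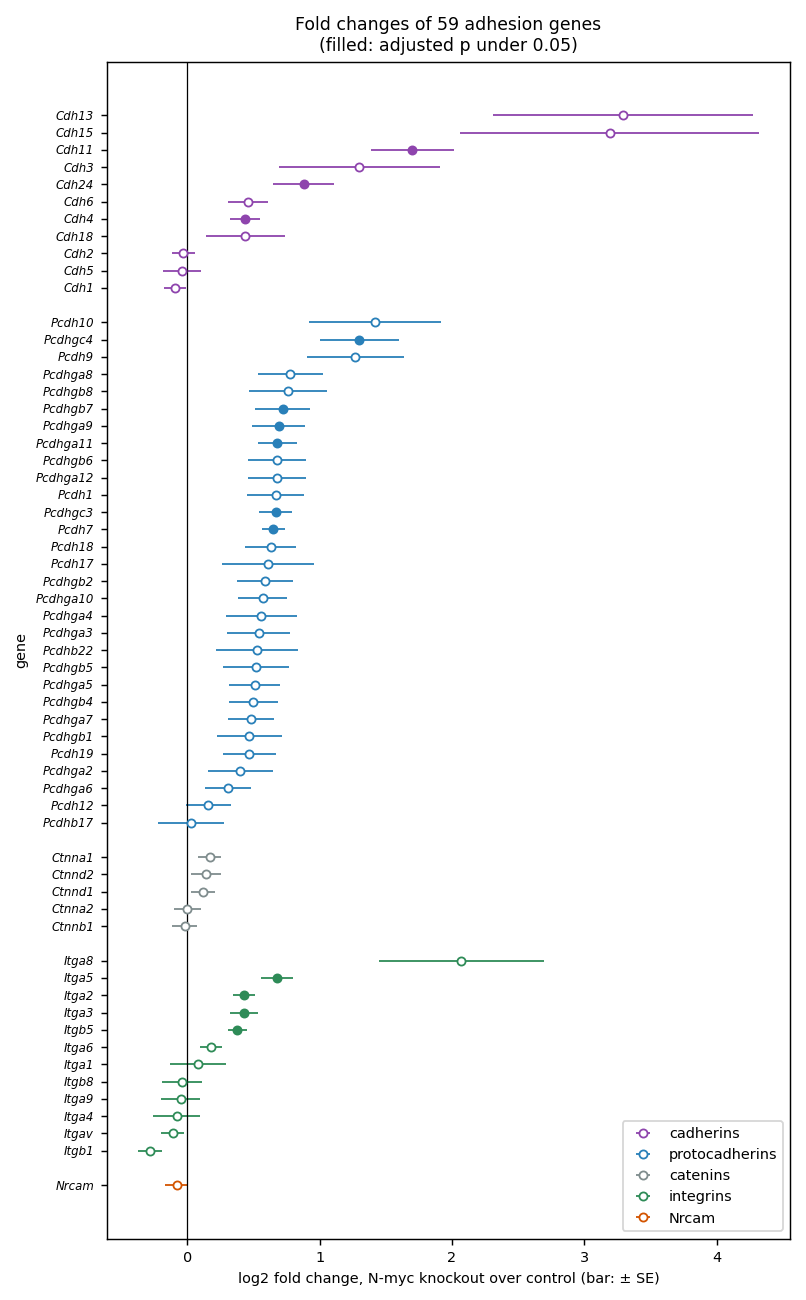
Log2 fold change of each of the 59 genes, knockout over control, with bars of ± SE, grouped by family and sorted within it; filled points passed the test. The 13 filled points lie right of 0, from 0.38 for Itgb5 to 1.70 for Cdh11, and the 5 catenins lie between -0.02 and 0.17.

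These calls rested on few libraries, as did those of all genes. Of the 13 genes, 0 passed without control replicate 2 (adjusted p from 0.06 to 0.15), when 0.175% of all genes were higher. Without control replicate 3, Cdh11 and Pcdh7 passed (1.10% of all genes higher), and without knockout replicate 1 only Pcdh7 did (1.48%). Without control replicate 1, 10 of the 13 passed (8.21%), and Itgb1 was lower (7.80% of all genes lower). All 13 passed without knockout replicate 2, when 35 members and 11.8% of all genes were higher. The 13 genes kept a fold change above 0 with each of the 5 libraries left out. DESeq2's test called 22 members higher (9.76% of all genes) and 1 lower (10%), and limma-voom 11 higher (6.81%). Other scalings and filters in edgeR called between 11 and 18 members higher, where the share of all genes was 8.33% with DESeq2's size factors, 12.6% with library totals only, 7.56% without a filter and 9.86% with a stricter one. With a replicate block 10 members were higher (3.93%), and with the block and transcript length and GC trends removed 2 were (0.864%).

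The core of the cadherin and catenin complex did not pass the test. Cdh2, the N-cadherin gene, stood at 737 and 752 CPM in the knockout libraries, against 793, 746 and 748 CPM in the controls, and the groups overlapped (log2 fold change -0.03, SE 0.0861, edgeR adjusted p = 0.80). Cdh1, the E-cadherin gene, stood at 282 and 264 CPM in the knockouts and at 304, 286 and 283 CPM in the controls. Both knockout values of Cdh1 were below the lowest control, narrowly so in knockout replicate 1, and the log2 fold change was -0.09 (SE 0.0826, edgeR adjusted p = 0.45). Cdh2 made up 52.9% and 56.6% of the summed cadherin CPM in the knockouts and 58.9% to 59.4% in the controls, and Cdh1 20.3% and 19.9%, against 22.3% to 22.7%.

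Ctnnb1 encodes beta-catenin, which binds cadherin tails and also carries Wnt signals to the nucleus. It stood at 725 and 811 CPM in the knockout libraries, against 761, 783 and 793 CPM in the controls. The knockout values lay on either side of the controls (log2 fold change -0.02, SE 0.0917, edgeR adjusted p = 0.89). Ctnna1, the epithelial alpha-catenin, was at 271 and 266 CPM in the knockouts and at 223, 246 and 248 CPM in the controls, without overlap (log2 fold change 0.17, SE 0.0845, edgeR adjusted p = 0.19). Ctnnd1, the p120-catenin gene, was at 257 and 229 CPM in the knockouts and at 234, 212 and 227 CPM in the controls. In the annotation 38.8% of its exon bases were its own and the rest overlapped another gene, so its counts are uncertain where the strand setting is not stated. Ctnnd2, the neural delta-catenin, averaged 465 ± 7.88 CPM (SD, n = 2) in the knockouts and 423 ± 53.4 CPM (SD, n = 3) in the controls, and Ctnna2, the neural alpha-catenin, 51.4 ± 0.218 and 51.3 ± 5.14 CPM. Of the 5 catenin genes 0 had an unadjusted edgeR p under 0.05, where 35.8% of all genes did, and DESeq2 and limma-voom called 0 as well.

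Per kilobase of the longest transcript, Ctnnb1 had the highest level of the 59 genes, with 212 CPM per kb in the knockouts and 215 in the controls. Cdh2 followed with 154 and 157, Itga6 with 132 and 116 and Itgb1 with 104 and 126 CPM per kb. Nrcam, an immunoglobulin-type adhesion molecule that binds ankyrin, was at 84.1 and 88.9 CPM per kb. In CPM, Nrcam stood at 515 and 541 in the knockouts, against 532, 571 and 571 in the controls, with overlapping groups (log2 fold change -0.08, SE 0.0864, edgeR adjusted p = 0.53).

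**Figure D2:**
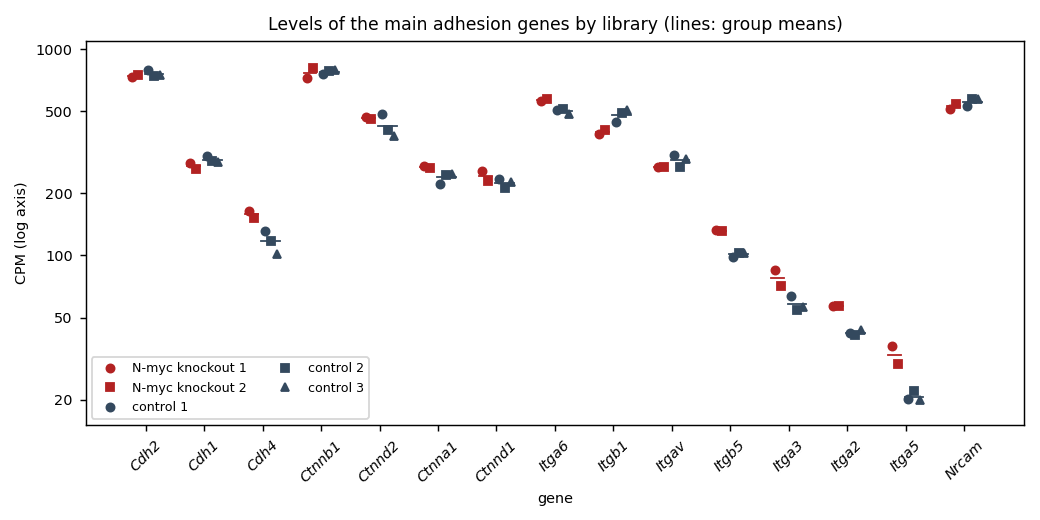
CPM (log axis) of 15 adhesion genes in each library, knockout left and control right for each gene, with lines at the group means. Cdh2, Ctnnb1 and Nrcam overlap between the groups, whereas Itgb5, Itga3, Itga2, Itga5 and Cdh4 are higher in both knockout libraries than in any control and Itgb1 is lower.

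Of the other cadherins, 3 rose. Cdh4, the R-cadherin gene, also known from the retina, stood at 165 and 152 CPM in the knockout libraries, against 132, 118 and 102 CPM in the controls. It was 1.35-fold higher without overlap (log2 fold change 0.44, SE 0.113, edgeR adjusted p = 0.040). Cdh11, a cadherin of mesenchymal cells, stood at 65.6 and 47.4 CPM in the knockouts, against 11.8, 13.6 and 26.9 CPM in the controls. Both knockout libraries were above the highest control, and the fold was 3.24 (edgeR adjusted p = 0.017, log2 fold change 1.70, SE 0.312). Cdh24 had 9.3 and 7.17 CPM in the knockouts, against 5.02, 4.86 and 3.57 CPM in the controls (1.84-fold, log2 fold change 0.88, SE 0.232, edgeR adjusted p = 0.041). Cdh5, the VE-cadherin of endothelium, was at 50 and 63.8 CPM in the knockouts and at 53.1, 54.1 and 68.5 CPM in the controls, with no call (log2 fold change -0.04, SE 0.146). Cdh6, a type II cadherin, had 49.1 and 34.8 CPM in the knockouts, against 32.7, 29.5 and 29.2 CPM in the controls, without overlap and without passing the test (edgeR adjusted p = 0.067), and Cdh18 overlapped between the groups (5.58 and 3.44 CPM in the knockouts, 2.67 to 3.72 CPM in the controls). The 13 endothelium and pericyte markers, which include Cdh5, summed to 382 and 384 CPM in the knockouts and to 347 to 424 CPM in the controls. Within this list the pericyte genes Pdgfrb and Cspg4 rose 1.75-fold and 1.97-fold (edgeR adjusted p = 0.018 and 0.020), and Rgs5, also of pericytes, was at 23.4 and 44.5 CPM in the knockouts and at 52.2 to 75.2 CPM in the controls without passing the test (edgeR adjusted p = 0.060). In bulk RNA a change in the number of cells of a type and a change in RNA per cell cannot be told apart.

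Cdh11 had its highest control value in control replicate 3, which also had the highest mesenchyme sum of the controls (881 CPM). In knockout replicate 2 Cdh11 was at 47.4 CPM while the mesenchyme sum of 751 CPM lay within the control range. The part of mesenchyme in the Cdh11 rise was not tested. Without knockout replicate 1 Cdh11 had a log2 fold change of 1.45 and an adjusted p of 0.068, and Cdh4 and Cdh24 had adjusted p of 0.19 and 0.23. All 3 cadherin calls were also lost without control replicate 2, with adjusted p from 0.077 to 0.12. Without control replicate 3, only Cdh11 of the 3 passed (highest adjusted p 0.12), and without control replicate 1 Cdh24 did not pass (0.057).

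Among integrins, alpha chains for laminin, collagen and fibronectin rose, as did the beta-5 chain. Itga5, the alpha chain of the fibronectin receptor, stood at 36.2 and 29.8 CPM in the knockout libraries, against 20.1, 21.9 and 20 CPM in the controls (1.6-fold, log2 fold change 0.68, SE 0.122, edgeR adjusted p = 0.016). Itga2, which pairs with beta-1 to bind collagen, was at 56.9 and 57 CPM in the knockouts, against 42.1, 41 and 43.4 CPM in the controls (1.35-fold, log2 fold change 0.43, SE 0.0831, edgeR adjusted p = 0.020). Itga3, a laminin-binding chain, had 84.9 and 71.1 CPM in the knockouts, against 63.5, 54.2 and 56.4 CPM in the controls (1.34-fold, log2 fold change 0.43, SE 0.108, edgeR adjusted p = 0.038). For each of these genes both knockout libraries lay above the highest control. Itgb5, which pairs with the alpha-V chain to bind vitronectin, had 133 and 131 CPM in the knockouts, against 98.4, 103 and 103 CPM in the controls. The spread within each group was small beside the difference (1.3-fold, log2 fold change 0.38, SE 0.0737, edgeR adjusted p = 0.020).

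The integrin chains at the highest levels per kilobase, Itga6 and Itgb1, did not pass the test. Itga6, the main laminin-binding alpha chain of the lens, was at 559 and 577 CPM in the knockouts, against 508, 511 and 484 CPM in the controls, without overlap (log2 fold change 0.18, SE 0.083, edgeR adjusted p = 0.16). Itgb1, the beta chain that most of these alpha chains pair with, was at 387 and 405 CPM in the knockouts and at 444, 493 and 509 CPM in the controls. Both knockout libraries were below every control, and the log2 fold change was -0.28 (SE 0.0934, edgeR adjusted p = 0.070). Itgb1 did pass with DESeq2 (adjusted p = 0.015) and with edgeR without control replicate 1 (0.038), and over 14 alternatives its adjusted p lay between 0.015 and 0.54. Itgav, the alpha-V chain, stood at 268 and 270 CPM in the knockouts and at 306, 268 and 294 CPM in the controls (log2 fold change -0.11, SE 0.0881, edgeR adjusted p = 0.42). In the summed integrin beta CPM, Itgb1 took 71.2% and 71.9% in the knockouts and 77.4% to 80.0% in the controls, and Itgb5 24.4% and 23.3%, against 16.3% to 17.1%. The summed CPM of the 3 beta chains was 544 and 563 in the knockouts and 574 to 636 in the controls, and that of the 9 alpha chains was 1142 and 1098, against 995 to 1048. Itga1, Itga4, Itga9 and Itgb8 overlapped between the groups, with log2 fold changes from -0.08 to 0.08. The 4 integrin calls were lost without control replicate 2 (adjusted p 0.069 to 0.13), without control replicate 3 (0.057 to 0.11) and without knockout replicate 1 (0.084 to 0.22).

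To show the sequence upstream of adhesion genes that rose together, the 250 bases before the RefSeq start site (GRCm38.p6) are given for Pcdh7, the member with the smallest adjusted p, and for the 3 integrin genes with the smallest adjusted p, with Itgb1 for contrast. They lie at chr5:57717831-57718080, plus strand (Pcdh7), chr15:103366792-103367041, minus strand (Itga5), chr13:114932101-114932350, minus strand (Itga2), chr16:33829415-33829664, plus strand (Itgb5) and chr8:128685404-128685653, plus strand (Itgb1). Each is written 5′ to 3′ along the gene, and capitals mark CANNTG, the general E-box to which basic helix-loop-helix proteins, MYC proteins among them, can bind.
Pcdh7: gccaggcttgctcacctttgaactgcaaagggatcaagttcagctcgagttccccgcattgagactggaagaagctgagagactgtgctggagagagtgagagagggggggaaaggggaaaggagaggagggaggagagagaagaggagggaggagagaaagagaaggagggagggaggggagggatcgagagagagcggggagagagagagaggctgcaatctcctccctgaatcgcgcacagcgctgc
Itga5: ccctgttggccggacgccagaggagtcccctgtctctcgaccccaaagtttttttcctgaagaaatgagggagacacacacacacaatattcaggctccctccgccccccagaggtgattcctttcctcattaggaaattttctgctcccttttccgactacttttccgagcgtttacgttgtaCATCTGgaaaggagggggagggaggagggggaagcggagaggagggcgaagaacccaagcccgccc
Itga2: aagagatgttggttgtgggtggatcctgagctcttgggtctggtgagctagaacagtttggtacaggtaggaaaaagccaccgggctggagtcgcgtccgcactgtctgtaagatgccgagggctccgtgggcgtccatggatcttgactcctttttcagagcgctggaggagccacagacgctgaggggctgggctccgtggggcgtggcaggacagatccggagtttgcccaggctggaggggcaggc
Itgb5: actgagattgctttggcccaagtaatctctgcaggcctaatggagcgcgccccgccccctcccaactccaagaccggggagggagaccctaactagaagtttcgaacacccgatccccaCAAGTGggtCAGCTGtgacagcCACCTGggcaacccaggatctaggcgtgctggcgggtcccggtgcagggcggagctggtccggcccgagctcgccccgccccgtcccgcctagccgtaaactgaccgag
Itgb1: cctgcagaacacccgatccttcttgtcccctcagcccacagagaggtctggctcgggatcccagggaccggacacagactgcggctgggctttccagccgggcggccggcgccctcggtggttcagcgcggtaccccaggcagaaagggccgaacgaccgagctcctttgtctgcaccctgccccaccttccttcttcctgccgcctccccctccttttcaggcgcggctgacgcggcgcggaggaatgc
Of these promoters, that of Itgb5 held 3 such motifs, that of Itga5 held 1 and the other genes shown held 0. The form CACGTG, to which MYC and MAX bind best, was in 0 of the 5. Both motifs read the same on either strand. Among all 32851 promoter entries CACGTG was in 6.02% and CANNTG, which includes it, in 66.2%. RefSeq entries were matched for 26 of the 59 members, with 30 promoters, of which 1 (Cdh15) held CACGTG and 17 held CANNTG. Of the 6 members that rose and had an entry, 0 held CACGTG and 4 held CANNTG. A match or its absence describes only these letters in this window.

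Protocadherins had fold changes above 0 throughout, at 30 of 30 genes, where 50.2% of all genes did. Of the 30, 20 belong to the gamma cluster and share exons, so these are not 30 separate measurements. Outside the clusters, Pcdh7, a delta-1 protocadherin, stood at 139 and 137 CPM in the knockout libraries, against 83, 85.2 and 96.6 CPM in the controls. Both knockouts lay above all controls and close to each other (1.56-fold, log2 fold change 0.65, SE 0.0886, edgeR adjusted p = 0.010). Pcdh7 passed in 13 of 14 alternatives and had an adjusted p of 0.060 without control replicate 2. In the annotation 78.9% of its exon bases were its own. Pcdh18, a delta-2 protocadherin, had 60.5 and 40.2 CPM in the knockouts, against 27.3, 31.8 and 38.8 CPM in the controls, without overlap and without passing the test (log2 fold change 0.63, SE 0.195, edgeR adjusted p = 0.060). Pcdh19, which is linked to epilepsy in humans, had 37.4 and 35.2 CPM in the knockouts, against 33.2, 25.8 and 19.3 CPM in the controls (log2 fold change 0.47, SE 0.197, edgeR adjusted p = 0.13). Pcdh1 was at 18.2 and 19.4 CPM in the knockouts and at 10.2, 9.64 and 15.6 CPM in the controls (log2 fold change 0.67, SE 0.215, edgeR adjusted p = 0.065). Pcdh12, an endothelial protocadherin, overlapped between the groups (13.1 and 13 CPM in the knockouts, 10.1 to 13.7 CPM in the controls).

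All 20 genes of the gamma cluster, on chromosome 18, had fold changes above 0, where 50.2% of all genes did, and 5 of them (25%) rose, where 7.98% of all genes did. The genes share exons, so these are not 20 separate measurements. Their log2 fold changes ran from 0.31 (Pcdhga6) to 1.30 (Pcdhgc4), with a median of 0.58. The C-type gene Pcdhgc3 was at 53.1 and 41.3 CPM in the knockout libraries, against 29.1, 28.6 and 31.5 CPM in the controls (1.59-fold, log2 fold change 0.67, SE 0.125, edgeR adjusted p = 0.018). Pcdhgc4, known for its role in neuron survival in mice, had 7.59 and 4.66 CPM in the knockouts, against 2.9, 2.5 and 2.05 CPM in the controls (2.46-fold, log2 fold change 1.30, SE 0.296, edgeR adjusted p = 0.030). Both C-type genes in the table therefore rose, beside 2 of 11 A-type and 1 of 7 B-type genes. The difference between the types was not tested.

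Pcdhga11 had 14.7 and 14.1 CPM in the knockouts, against 8.47, 9.71 and 8.73 CPM in the controls (1.6-fold, edgeR adjusted p = 0.026, log2 fold change 0.68, SE 0.147). Its knockout values lay close to each other. Pcdhgb7 had 16.7 and 11.3 CPM in the knockouts, against 9.49, 7.59 and 8.35 CPM in the controls (1.65-fold, log2 fold change 0.72, SE 0.205, edgeR adjusted p = 0.048). Pcdhga9 had 19 and 12.6 CPM in the knockouts, against 10.3, 9.03 and 10.1 CPM in the controls (1.61-fold, log2 fold change 0.69, SE 0.197, edgeR adjusted p = 0.0498). In both of these genes knockout replicate 1 was the higher library, and both knockouts lay above the controls.

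The cluster's rise was unequal in the knockout libraries. The summed CPM of the 20 genes was 357 and 243 in knockout replicates 1 and 2, against 196 to 197 in the 3 controls. Knockout replicate 1 was above knockout replicate 2 for 20 of 20 genes, where 46.9% of all genes were. The median ratio to the control mean was 1.80 in knockout replicate 1 and 1.21 in knockout replicate 2. Both knockout libraries lay above every control for 14 of the 20 genes, where 25.5% of all genes did so, and the 20 genes share exons. Shares within the cluster were compared as well. Pcdhgc4 took 2.13% and 1.92% of the summed CPM in the knockouts and 1.04% to 1.47% in the controls, without overlap. Shares of Pcdhga6 (4.05% and 4.6%, against 4.75% to 5.81%) were below every control. So were those of Pcdhga2 (2.19% and 2.15%, against 2.2% to 2.86%) and Pcdhga5 (4.76% and 4.69%, against 4.81% to 5.35%), narrowly. These differences in share were not tested. Pcdhgc3 took 14.9% and 17.0% of the summed CPM in the knockouts and 14.6% to 16.0% in the controls, and Pcdhga11 4.13% and 5.78%, against 4.3% to 4.95%. Of the exon bases of a gamma gene, between 0.0% (Pcdhga10) and 68.5% (Pcdhgb5) were its own in the annotation. The sources used here do not say how reads in the shared exons were counted, so counts of single gamma genes are uncertain. Without knockout replicate 1 the median log2 fold change of the 20 genes was 0.28, and without knockout replicate 2 it was 0.84. Without control replicate 2 or control replicate 3, 0 of the 5 gamma calls remained, with adjusted p of up to 0.15 and 0.13, and without control replicate 1 Pcdhga9 and Pcdhgb7 did not pass (highest adjusted p 0.082). The 2 beta-cluster genes, Pcdhb17 and Pcdhb22, did not pass and were at 2.13 to 4.15 CPM in all libraries.

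**Figure D3:**
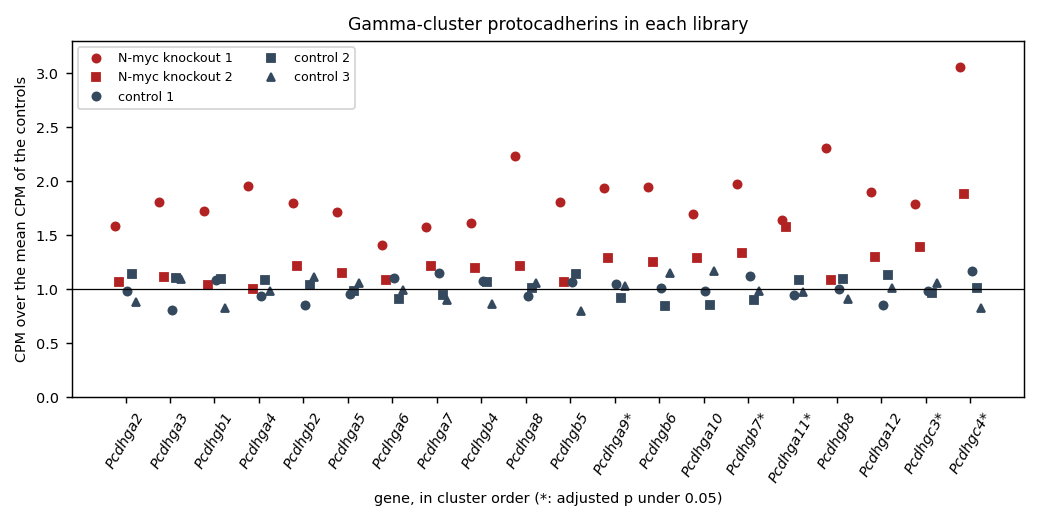
CPM of each gamma-cluster gene divided by its mean CPM in the controls, by library, with genes in cluster order and asterisks at those that passed the test. Knockout replicate 1 lies above all other libraries at each of the 20 genes, with a median ratio of 1.80, while knockout replicate 2 has a median ratio of 1.21.

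A further group of adhesion genes was far higher in knockout replicate 1 than in knockout replicate 2. These were chosen after their values were seen. In 8 of the 59 genes knockout replicate 1 was at least 2-fold above knockout replicate 2, which is 13.6%, against 2.94% of all genes, and in 0 was the reverse true. The genes were Cdh3, Cdh13, Cdh15, Itga8, Pcdh9, Pcdh10, Pcdh17 and Pcdhgb8, and 0 of the 8 passed the test. Cdh15, the M-cadherin of skeletal muscle, stood at 9.59 and 0.359 CPM in knockout replicates 1 and 2, against 0.314, 1.14 and 0.152 CPM in the controls. The muscle marker list was likewise highest in knockout replicate 1 (2169 CPM) and next in control replicate 2 (283 CPM), with 60.6 to 96.1 CPM in the other libraries. All 8 muscle markers were in the table. Knockout replicate 1 was above knockout replicate 2 for 8 of 8, where 46.9% of all genes were. Between the groups, 0 of the 7 tested muscle markers rose and 0 fell.

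Itga8, an RGD-binding alpha chain of mesenchyme, was at 14.7 and 3.16 CPM in the knockouts and at 1.57, 1.37 and 3.42 CPM in the controls (log2 fold change 2.07, SE 0.622, edgeR adjusted p = 0.055). Cdh13, a cadherin with a lipid anchor in place of a tail, was at 7.94 and 0.717 CPM in the knockouts, against 0.157, 0.228 and 0.911 CPM in the controls, on raw counts of 111 and 10 against 2, 3 and 12. Knockout replicate 2 lay within the control range for both genes. Pcdh10 had 15.2 and 3.87 CPM in the knockouts, against 2.67, 3.72 and 4.25 CPM in the controls. Pcdh9 had 20.8 and 8.18 CPM in the knockouts, against 4.86, 5.77 and 7.44 CPM in the controls, and was just outside the threshold (edgeR adjusted p = 0.0501). Cdh3, the P-cadherin gene, had 11.5 and 2.3 CPM in the knockouts, against 1.57, 3.04 and 3.72 CPM in the controls, and Pcdh17 had 39.6 and 14.6 CPM, against 15.2, 18.9 and 19 CPM. Of 16 periocular mesenchyme markers 14 were in the table, and 0 of these were at 0 in any library. Knockout replicate 1 was above knockout replicate 2 for 14 of 14, where 46.9% of all genes were. Between the groups, 5 of the 14 (35.7%) rose and 0 fell, where 7.98% of all genes rose and 8.51% fell. All 14 had fold changes above 0, with a median log2 fold change of 2.19. The part of mesenchyme and muscle in the values of the 8 adhesion genes was not tested. Without knockout replicate 1, Cdh3, Cdh15 and Pcdh17 had log2 fold changes of -0.27, -0.57 and -0.28, and the adjusted p of the 8 genes lay between 0.40 and 0.87.

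**Figure D4:**
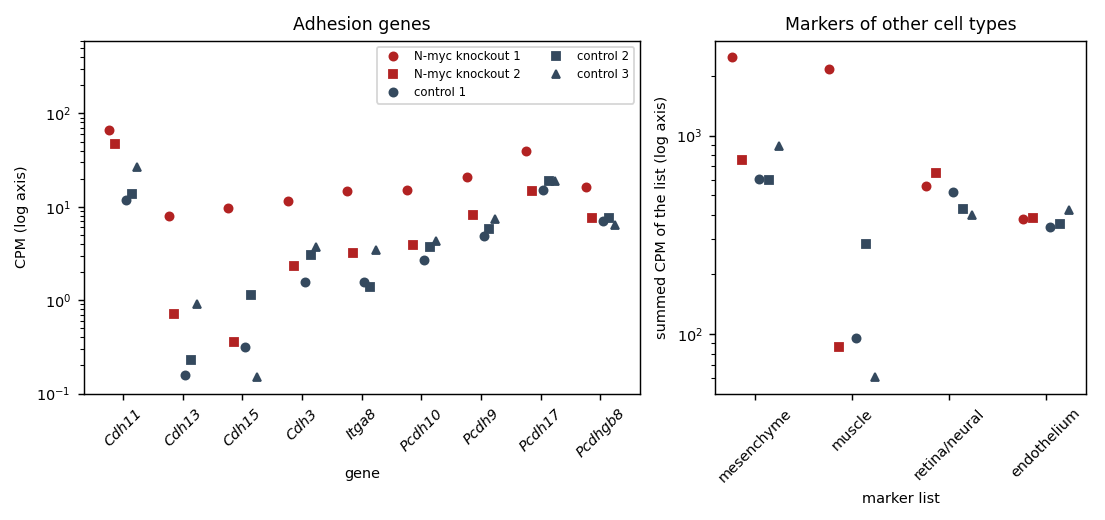
Left, CPM (log axis) of Cdh11 and the 8 genes at least 2-fold higher in knockout replicate 1 than in knockout replicate 2, by library; right, the summed CPM (log axis) of 4 marker lists. Mesenchyme and muscle markers are highest in knockout replicate 1, at 2490 and 2169 CPM, and the retina list is highest in knockout replicate 2, at 647 CPM.

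Of 15 retina and neural markers, 14 were in the table. Of these, 8 (57.1%) rose and 0 fell, where 7.98% of all genes rose and 8.51% fell. Their summed CPM was 558 and 647 in knockout replicates 1 and 2, against 398 to 521 in the controls. Of these 14 markers, 1 was higher in knockout replicate 1 than in knockout replicate 2, where 46.9% of all genes were. The gamma protocadherin sum was highest in knockout replicate 1 and the retina sum in knockout replicate 2. Both sums were higher in each knockout library than in any control. The part of retinal cells in the rises of Cdh4, Pcdh7 and the gamma cluster was not tested.

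Calls for higher expression in the knockouts differed with the GC content of the transcript. When the tested genes were ranked by GC content and split into 3 classes of about equal size, 15.8% of those in the highest class (52.9% to 78.9% GC) rose, against 6.03% in the middle and 2.21% in the lowest class (31.0% to 46.6%). Of the adhesion genes in these classes, 8 of 19, 2 of 22 and 3 of 18 rose, with median log2 fold changes of 0.59, 0.38 and 0.50. The 3 that rose in the lowest class were Cdh11, Itga2 and Pcdh7. After removal of the trends of each library with GC content and length of the transcript, these same 3 genes passed and the other 10 did not, while 3.80% of all genes were higher. The 13 genes kept fold changes above 0, from 0.02 (Itga3) to 1.76 (Cdh11), and the median over all 59 genes was 0.31. The gamma cluster, with GC contents of 51.0% to 55.4%, had a median log2 fold change of 0.35 with the trends removed, and 20 of 20 genes were above 0.

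**Figure D5:**
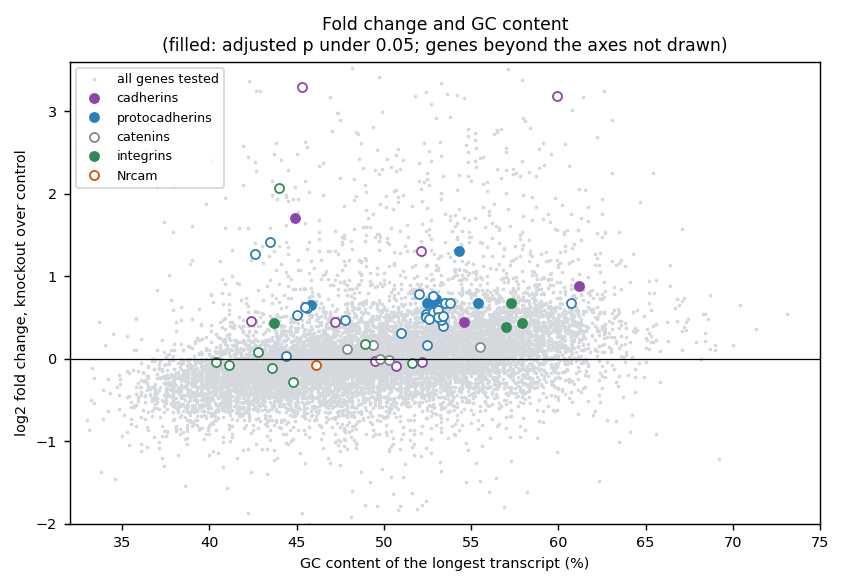
Log2 fold change, knockout over control, against the GC content of the longest transcript for all genes tested (grey) and the 59 adhesion genes, coloured by family and filled where the test was passed. Of the 13 filled points, 8 lie at GC contents above 52.9%, and Cdh11, Itga2 and Pcdh7 lie below 46.6%.

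Partners of these receptors were examined in lists of related genes, to be read against the 7.98% of all genes that rose and the 8.51% that fell. Of 30 tested genes for proteins that bind integrin tails or act in focal adhesions, 8 (26.7%) rose and 0 fell. Src, a tyrosine kinase, stood at 56.4 and 54.9 CPM in the knockouts, against 39.4, 36.3 and 37.5 CPM in the controls (1.48-fold, log2 fold change 0.56, SE 0.0872, edgeR adjusted p = 0.013). Tns3 (tensin 3), Arhgef7 (beta-PIX) and Flna (filamin A, which crosslinks actin) rose 1.45-fold, 1.34-fold and 1.37-fold. The list's median log2 fold change was 0.22, and with length and GC trends removed it was 0.09 with 2 genes higher. Of 20 tested integrin ligands of the matrix, 6 (30%) rose and 0 fell, with a median log2 fold change of 0.45, or 0.13 and 2 genes higher with the trends removed. Lama3, the laminin alpha-3 chain, was at 65.3 and 58.8 CPM in the knockouts and at 29, 22.8 and 23 CPM in the controls (2.49-fold, log2 fold change 1.31, SE 0.126, edgeR adjusted p = 0.0037). Lamb2, the laminin beta-2 chain, was at 74.6 and 60.5 CPM in the knockouts and at 39.8, 37.8 and 35.4 CPM in the controls (1.79-fold). Both were higher in each knockout library than in any control. Fn1, fibronectin, the ligand of the Itga5 receptor, had 1455 and 392 CPM in the knockout libraries, against 286, 224 and 315 CPM in the controls. Fbn1, fibrillin 1, had 242 and 49.7 CPM, against 28.3, 30.5 and 40.8 CPM. Like the mesenchyme sum, Fn1 and Fbn1 were higher in knockout replicate 1 than in knockout replicate 2. In knockout replicate 2 both genes lay above every control, while the mesenchyme sum (751 CPM) lay within the control range (594 to 881 CPM). The part of mesenchyme in the rises of Fn1 and Fbn1 was not tested.

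Of 21 tested cytoplasmic partners of cadherins, 1 (4.76%) rose and 1 fell, which is 9.52% called, against 16.5% of all genes. The median log2 fold change was 0.19, and 0.02 with the trends removed, when 0 were higher and 1 lower. Pkp2, plakophilin 2 of desmosomes, fell to 44.8 and 52.8 CPM in the knockouts, against 69.5, 69.3 and 67.2 CPM in the controls (log2 fold change -0.49, SE 0.0948, edgeR adjusted p = 0.020). Iqgap1, a scaffold that binds actin and beta-catenin, rose 1.36-fold. Of 12 tested cadherin-like receptors and nectins, 4 (33.3%) rose and 0 fell, with a median log2 fold change of 0.38. With the trends removed the median was 0.01, 6 of 12 were above 0 and 1 was higher, in a list with a median GC content of 54.8%. Dchs1, which pairs with Fat4 in planar cell polarity, was at 151 and 69.5 CPM in the knockouts, against 34.1, 34.4 and 34.5 CPM in the controls (3.21-fold, log2 fold change 1.68, SE 0.266, edgeR adjusted p = 0.013). Fat4 rose 1.38-fold, Celsr2, another planar polarity cadherin, 1.43-fold, and Nectin2 1.36-fold. Of 14 tested immunoglobulin-type adhesion molecules and their ankyrin-linked partners, 4 (28.6%) rose and 0 fell, with a median log2 fold change of 0.32, or 0.11 with 2 higher and 1 lower after removal of the trends. Ncam1, the neural cell adhesion molecule, was at 234 and 209 CPM in the knockouts, against 166, 166 and 160 CPM in the controls (1.35-fold). Cntn2 (3.33-fold) and Cadm3 (2.65-fold), both known from neurons, and Epb41l1 (1.38-fold), a membrane skeleton protein, also rose.

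Of the 24 calls in these lists, 4 remained without knockout replicate 1 (Cntn2, Dchs1, Lama3 and Lamb2), 1 without control replicate 2 (Lama3) and 3 without control replicate 3 (Lama3, Lamb2 and Src). The highest adjusted p were then 0.52, 0.15 and 0.13. Without control replicate 1, 19 remained, and without knockout replicate 2, 22. With the length and GC trends removed 8 remained, and 22 of 24 kept their direction.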

How the data were processed

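RNA of pooled embryonic day 14 mouse lenses was sequenced in 2 N-myc knockout and 3 control libraries, grouped by sample title. The deposited file was a table of unnormalized counts by gene symbol, with library totals of 13162384 to 13746416. Per the submitters' processing notes, the tools were Cufflinks 2.2.1, DESeq2, HTSeq 0.6.1, TopHat2 2.0.13 and Trim Galore 0.3.7, and the build was mm10; the notes give no roles. The sources used here give neither annotation nor strand setting.

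The test was edgeR 4.0.16 in R 4.3.3: filterByExpr (minimum count 10; 12035 genes kept, 335 removed), TMM, estimateDisp, glmQLFit and glmQLFTest without covariate, Benjamini-Hochberg over all genes tested, threshold 0.05. The SE is the log2 fold change over the square root of F. CPM is relative to the TMM-scaled sum over tested genes. The test was also run on simulated counts with planted fold changes. These counts had no outlying library and no GC trend, so that run does not show how the test handles either. Chi-square over degrees of freedom between libraries of a group was 9.98 to 23.39, so no library was merged with another, and p-values reflect differences among pools, which may be technical. Alternatives used DESeq2 1.42.0, limma 3.58.1, other scalings and filters, a replicate block, loess offsets (span 0.3) for transcript length and GC content (GENCODE vM21, GRCm38, 11804 genes), and each library left out.

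The members, the lists and the tests were chosen with earlier results of these data known. An item of the list of cytoplasmic cadherin partners is not reported here and is not in that list's counts. Named genes were every called member, the 5 most abundant of each family, Mycn, Nrcam, Cdh1, Cdh2, Cdh5, Ctnna1, Ctnnb1, Ctnnd1, Itgb1, Itga6, Itgav and up to 4 called genes of each of 5 partner lists; others were chosen after their values were seen. Marker lists of lens epithelium, blood and macrophages, and pigment cells gave summed CPM of 1241 and 1347, 94.8 and 94.4, and 30.1 and 39.2 in knockout replicates 1 and 2, against 1284 to 1366, 85.1 to 111 and 38.6 to 48.8 in the controls.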

Additional observations from a re-analysis of the deposited data

How the results depend on the processing

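The counts of genes called depended on the libraries. With 1 library left out, between 0 and 35 members were higher (13 with all libraries) and between 0 and 1 lower (0; Itgb1), between 21 and 1426 of all genes were higher (960) and between 17 and 1291 lower (1024). By family, 0 to 7 cadherins (3), 0 to 23 protocadherins (6) and 0 to 5 integrins (4) were higher, and 0 to 1 integrins lower (0). With DESeq2's test 22 members were higher and 1 lower (Itgb1), with 5 cadherins and 12 protocadherins higher and 1 integrin lower. With library totals as the only scaling, 1511 of all genes were higher and 637 lower, and 18 members were higher, 5 of them cadherins. Removal of the length and GC trends left 457 of all genes, 3 members, 1 cadherin, 1 protocadherin and 1 integrin higher. The cause of these shifts was not tested.

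Replicate numbers are shared between the groups, but nothing in the labels pairs the libraries, and deviations from the group means correlated at -0.093 and 0.007 for replicates 1 and 2. With the replicate block 473 of all genes were higher and 522 lower, and 10 members were higher, 3 of them protocadherins, with 7 of the 13 calls kept. With the replicate block and the length and GC trends removed together, 104 of all genes were higher and 141 lower, and 2 members were higher (Cdh11 and Pcdh7), with 1 cadherin, 1 protocadherin and 0 integrins. Celsr2 then had a log2 fold change of -0.02.

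Counts of members called higher kept within 1.5 times of 13 with DESeq2's size factors (13), limma-voom (11), no filter on low counts (11) and at least 50 counts in 2 libraries (14 of 53 members left). They also did so with library totals only (18), with the replicate block (10) and without control replicate 1. Ctnnb1 and Nrcam, not called in any alternative, had log2 fold changes of 0.06 and 0.00 with library totals only. Cdh13 and Cdh15, on raw counts of 10 and 5 in knockout replicate 2, passed without that library (adjusted p = 0.0017 and 0.0018), and the part of depth in their missing calls was not tested.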
